A study of Mus musculus with 8 samples.

Results

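The genes described here encode the Wnt ligands, their receptors and the machinery that releases the ligands, measured in lungs of 21-day-old mice (Mus musculus) of 2 beta-catenin genotypes. Members were every gene with a single annotated symbol of the Wnt or Fzd (Frizzled) families, plus the receptors and co-receptors Lrp5, Lrp6, Ryk, Ror1 and Ror2 and the secretion genes Porcn and Wls, each represented by its brightest probe set. This gave 36 of the 19937 genes on the arrays, namely 19 ligands, 10 Frizzled receptors, 5 other receptors and 2 secretion genes. A probe set is the group of array probes that reports on 1 transcript, and Wnt4 alone among the members had more than 1 of them. Total RNA from untreated whole lung was hybridised to 8 arrays, 4 from mice labelled beta-catenin stabilized and 4 from mice labelled beta-catenin knockout, all at postnatal day 21. The labels record every mouse as male and number separate biological replicates 1 to 4 in each group. The Cre driver, the cells that carried either allele and the altered exons are not stated in the material available here, and lungs with unmodified beta-catenin were not analysed here. Each difference below is therefore stabilized minus knockout and says nothing of a normal lung. Where 4 values of a gene are listed for a genotype, they are the log2 levels in its replicates 1 to 4.

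Wnt proteins are secreted lipid-modified ligands. The acyltransferase Porcn attaches the lipid in the endoplasmic reticulum, the carrier Wls takes the modified ligand to the cell surface, and a Frizzled receptor on the receiving cell binds it together with a co-receptor. Lrp5 and Lrp6 lead the signal to beta-catenin, encoded by Ctnnb1, whereas Ror1, Ror2 and Ryk serve branches that can act without it. In lung, mesenchymal Wnt2 and epithelial Wnt7b are known from development, and Wnt5a is a mesenchymal ligand of the branch that does not need beta-catenin. The members that lead the signal to beta-catenin thus lie upstream of the protein altered in these mice.

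Most of these genes did not pass the test between the groups. Of 36 members 2 were higher in stabilized lungs, 1 was lower and 33 did not pass the test (limma, with p-values adjusted by Benjamini-Hochberg across every gene and a threshold of 0.05). The share called was 8.33%, beside a background of 9.62% over all 19937 genes, 4.65% higher and 4.96% lower, so the members' share lay near that of all genes. The called genes were Wnt2, Ryk and Porcn, 1 each from the ligands, the other receptors and the secretion genes. None of the 10 Frizzled receptors was called. Of these receptors 2 had an unadjusted p under 0.05 in the same limma fit, beside 4923 of all 19937 genes. The median difference was 0.00 on the log2 scale over the members and -0.01 over all genes, and the median size of a difference, whatever its sign, was 0.12 against 0.10. The groups did not overlap in 6 of 36 members, 2 with stabilized lungs above and 4 with stabilized lungs below, beside 16.9% of all genes.

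**Figure D1:**
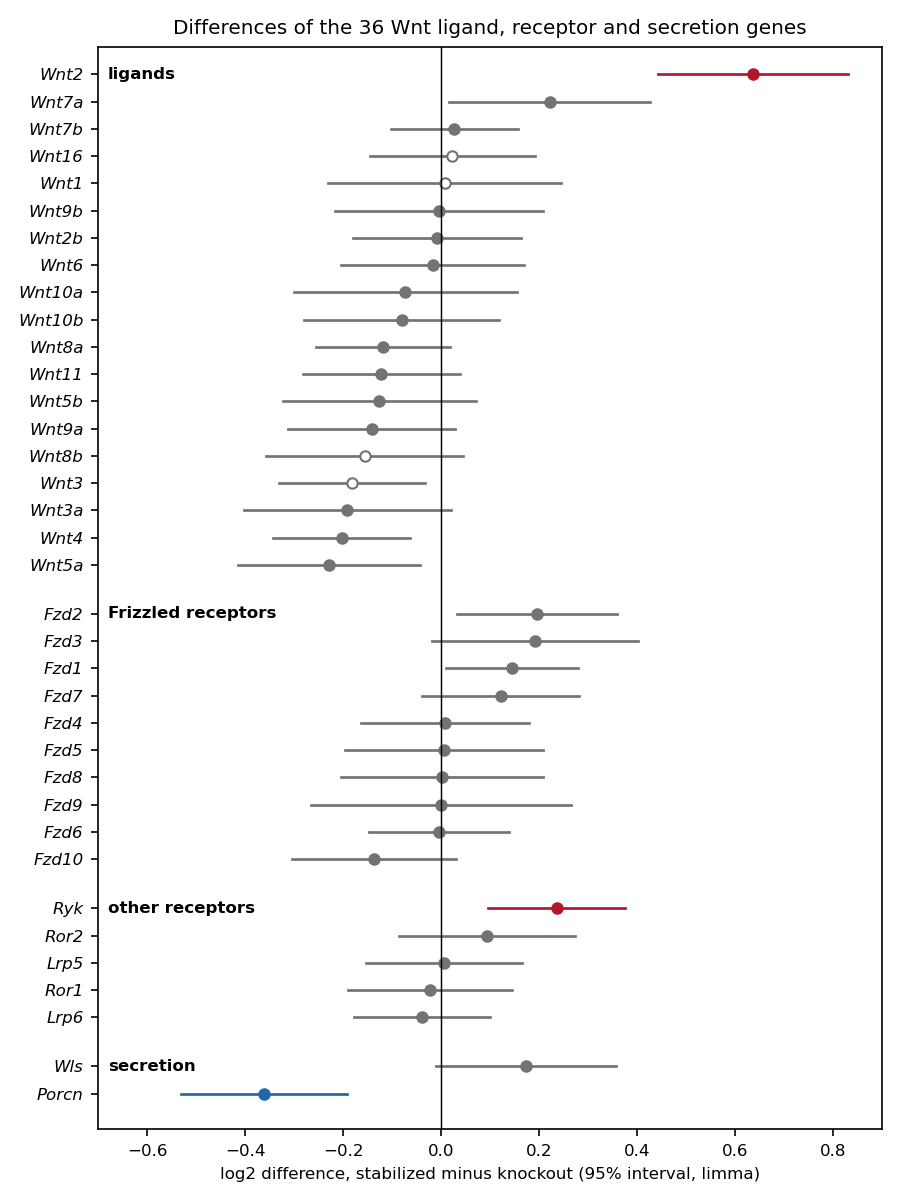
Difference in log2 expression between stabilized and knockout lungs (horizontal axis) for each of the 36 genes, with limma's 95% interval, 4 arrays per group; red is called higher, blue called lower, gray not called, and open circles mark the 4 ligands at background level. Wnt2 lies farthest right at 0.64, Porcn farthest left at -0.36, and the Frizzled receptors lie between -0.14 and 0.20.

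The arrays as a whole bear on these values in the following ways. Correlations between arrays over all probe sets ranged from 0.986 to 0.992 within groups and from 0.981 to 0.99 between groups. Markers of lung cell types were well represented: all 10 listed markers each of alveolar type 1, alveolar type 2, club, ciliated, fibroblast and endothelial cells lay above background level. The cell makeup or its RNA differed between the groups. All 10 club cell markers, 7 of 10 ciliated, all 9 measured B cell, 8 of 9 T and NK cell and 6 of 10 cardiac muscle markers were lower in stabilized lungs. Higher were 7 of 10 alveolar type 2, 4 of 10 mesothelial and 3 of 9 macrophage markers, and the mean level of the mesothelial markers was 7.80 to 7.86 in stabilized and 7.53 to 7.57 in knockout lungs. In whole-lung RNA, fewer cells of a type and less RNA per cell cannot be told apart. Xist, the transcript of the inactive X chromosome in females, was at a log2 level of 10.36 to 10.59 in stabilized replicates 1 and 4 and knockout replicates 1 and 3, and 4.18 to 4.62 elsewhere, so the recorded sex was not borne out in 4 arrays, 2 from each genotype. Xist entered as a covariate in an alternative fit.

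The promoters of Wnt2 and Ryk, called higher, are shown because beta-catenin acts on transcription through TCF/LEF factors, whose core site can be read from the letters. The 250 bases before the annotated start were searched on both strands for CTTTGAT and CTTTGTT, which differ in 1 letter and so never share a match. RefSeq (build GRCm38.p6) gave 28 promoters for 25 of the 36 members, and the promoter of Porcn was not analysed here. The promoter of Wnt2 (chr6:18030446-18030695, minus strand) and that of Ryk (chr9:102834670-102834919, plus strand) held no match. Matches were found in 3 of the 28 (10.7%), beside 8.06% of all 32851 promoters, and belonged to Fzd7 (chr1:59481897-59482146, plus strand), 1 of 2 promoters of Wnt11 (chr7:98834862-98835111, plus strand) and 1 of 3 of Wnt5b. None of these 3 genes was called. Each line below runs 5′ to 3′ on the strand of the gene and ends at the base before its start, and capitals mark the matched letters, which on these strands read as the reverse complement.
Wnt2: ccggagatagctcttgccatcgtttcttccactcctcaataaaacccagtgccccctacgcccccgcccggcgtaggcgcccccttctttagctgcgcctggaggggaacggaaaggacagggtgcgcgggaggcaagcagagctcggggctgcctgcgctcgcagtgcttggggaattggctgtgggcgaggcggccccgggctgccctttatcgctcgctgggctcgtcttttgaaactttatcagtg
Ryk: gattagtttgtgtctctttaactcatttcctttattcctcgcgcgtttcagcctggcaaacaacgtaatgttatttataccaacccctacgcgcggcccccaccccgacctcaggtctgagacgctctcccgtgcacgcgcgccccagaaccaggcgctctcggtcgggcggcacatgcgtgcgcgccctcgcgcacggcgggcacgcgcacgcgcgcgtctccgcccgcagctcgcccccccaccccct
Fzd7: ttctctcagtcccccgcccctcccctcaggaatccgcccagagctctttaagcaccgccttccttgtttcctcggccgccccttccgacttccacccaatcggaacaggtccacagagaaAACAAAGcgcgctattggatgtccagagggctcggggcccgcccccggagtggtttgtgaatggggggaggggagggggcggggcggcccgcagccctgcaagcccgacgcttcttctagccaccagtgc
Wnt11: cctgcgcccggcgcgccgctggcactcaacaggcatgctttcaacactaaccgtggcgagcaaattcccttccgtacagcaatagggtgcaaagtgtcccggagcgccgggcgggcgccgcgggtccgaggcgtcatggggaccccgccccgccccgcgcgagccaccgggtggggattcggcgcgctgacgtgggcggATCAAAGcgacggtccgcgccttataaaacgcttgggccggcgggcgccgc
A match is a description of these letters and does not show binding.

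Wnt2 showed the largest difference of any member. This ligand of lung mesenchyme acts with Wnt2b when the lung field is specified in the embryo. The stabilized arrays gave 7.59, 7.59, 7.40 and 7.37, the knockout arrays 6.67, 6.96, 6.76 and 7.01. Every stabilized array lay above every knockout array, with a gap of 0.36 between the nearest of them. The group means were 7.49 ± 0.12 and 6.85 ± 0.16 (SD, n = 4), a difference of 0.64 ± 0.09 (SE, 95% interval 0.44 to 0.83, limma adjusted p = 7.3e-04) or 1.55-fold. By size it ranked 104 among the increases over 19937 genes. With each array left out in turn the difference ranged from 0.58 to 0.69, and the call stood in all 8 of these fits and in the other 7.

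The knockout arrays were not alike in Wnt2. Replicates 1 and 3 were lowest, at 6.67 and 6.76, and were also the knockout arrays with high Xist (10.55 and 10.42). The stabilized arrays with high Xist, replicates 1 and 4, gave 7.59 and 7.37 in Wnt2. Whether the split among knockout arrays follows sex was not tested. Fibroblast markers followed no single order across the knockout arrays, and their mean log2 level there was 9.90, 10.04, 10.05 and 9.96. Of the 10 markers 2 were called, both higher. Tcf21, a transcription factor of lung fibroblasts, gave 10.11, 9.84, 9.78 and 9.81 in stabilized and 8.98, 9.40, 9.13 and 9.48 in knockout lungs, lowest like Wnt2 in knockout replicates 1 and 3 (difference 0.64 ± 0.11, SE, limma adjusted p = 0.0033). Lum, a proteoglycan of the matrix that was not called, was instead highest there, at 6.16, 5.71, 6.15 and 5.72. The other called fibroblast marker was Pdgfra, a growth factor receptor, which was higher by 0.33 ± 0.06 (SE, limma adjusted p = 0.0054). The mean level of all 10 markers ranged from 10.09 to 10.25 in stabilized lungs, above all 4 knockout arrays. The cardiac muscle markers, found in the sheath of pulmonary veins, went the opposite way. Their mean level was 8.49 and 8.60 in knockout replicates 1 and 3, 7.99 and 7.98 in replicates 2 and 4, and 7.60 to 7.77 in stabilized lungs. The part that fibroblasts, muscle or lymphocytes had in the difference of Wnt2 was not tested. St7 and Asz1, the tested genes on either side of Wnt2 on chromosome 6, differed by 0.14 ± 0.06 and 0.01 ± 0.07 (SE), and neither was called in the limma fit (adjusted p = 0.18 and 0.93).

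**Figure D2:**
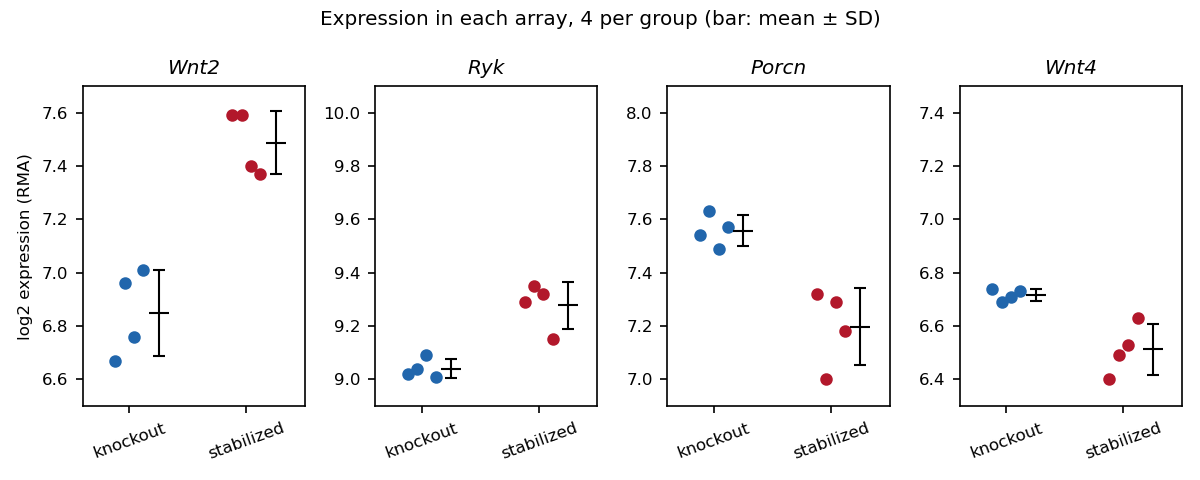
Log2 expression of the 3 called members and of Wnt4 in each knockout (blue) and stabilized (red) array, with the mean and SD of 4 arrays beside the points; each panel spans the same 1.2 log2 units. The groups are apart by 0.36 in Wnt2, 0.17 in Porcn and 0.06 in Ryk, while Wnt4, also without overlap, was not called.

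The remaining 18 ligands did not pass the test, with differences from -0.23 to 0.22 and limma adjusted p from 0.071 to 0.99. Of all 19 ligands, 14 had a difference below 0 and 5 above, with a median of -0.08. That lean depended on scaling. After each array was centred on its median 11 of 19 lay below 0, with a median of -0.04, and 11 of 19 lay below 0 after quantile normalization was repeated.

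Wnt4, a ligand of epithelia and developing kidney, came nearest to a call. It lay at 6.40, 6.49, 6.53 and 6.63 in stabilized lungs and at 6.74, 6.69, 6.71 and 6.73 in knockout lungs. The knockout arrays were tightly grouped and all lay above the stabilized arrays (difference -0.20 ± 0.06, SE, limma adjusted p = 0.071). Fitted over all probe sets, the 2 probe sets of Wnt4 gave differences of -0.20 and -0.24, and neither was called (limma adjusted p = 0.12 and 0.13). With their mean in place of the brighter 1 Wnt4 was called (difference -0.22, limma adjusted p = 0.037). It was also called without stabilized replicate 4 (limma adjusted p = 0.040).

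Wnt5a, the ligand of Ror2 and of the branch that can act without beta-catenin, had the lowest difference of any ligand. It lay at 7.35, 7.30, 7.06 and 6.98 in stabilized lungs, against 7.34, 7.45, 7.38 and 7.42 in knockout lungs. Stabilized replicates 3 and 4 were low, whereas replicate 1 lay among the knockout arrays and replicate 2 just under them. The difference of -0.23 ± 0.09 (SE) had a limma adjusted p = 0.12.

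Wnt3 and Wnt8a were the other ligands without overlap between the groups. Wnt3, a ligand that acts through beta-catenin, lay at 4.75, 4.74, 4.84 and 4.84 in stabilized lungs and 4.85, 5.06, 5.06 and 4.91 in knockout lungs. The nearest arrays were at 4.84 and 4.85, and the probe set lay in the background range (difference -0.18 ± 0.07, SE, limma adjusted p = 0.12). Wnt8a, a ligand of the early embryo, was at 5.42, 5.40, 5.39 and 5.27 in stabilized lungs and 5.42, 5.52, 5.46 and 5.55 in knockout lungs. The nearest arrays of the groups agreed to the second decimal. The difference was -0.12 ± 0.06 (SE, limma adjusted p = 0.27).

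Wnt7a had the second highest difference among the ligands. It was at 6.73, 6.39, 6.73 and 6.72 in stabilized lungs and at 6.25, 6.47, 6.39 and 6.58 in knockout lungs. Only stabilized replicate 2 lay among the knockout arrays. The difference was 0.22 ± 0.09 (SE, limma adjusted p = 0.17), and without stabilized replicate 2 it was 0.31 and called (limma adjusted p = 0.041). Wnt7b, the epithelial ligand of the developing lung, lay between 6.08 and 6.17 in stabilized and between 6.05 and 6.14 in knockout lungs and differed by 0.03 ± 0.06 (SE, 95% interval -0.10 to 0.16). Wnt2b, the partner of Wnt2 in lung specification, differed by -0.01 ± 0.08 (SE, 95% interval -0.18 to 0.16).

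Several ligand genes are neighbours on the chromosomes. Wnt6 and Wnt10a on chromosome 1, Wnt3a and Wnt9a on chromosome 11, Wnt3 and Wnt9b on the same chromosome, and Wnt1 and Wnt10b on chromosome 15 each had the other as the nearest tested gene on 1 side. Their differences were -0.02 and -0.07 in the first pair, -0.19 and -0.14 in the second, -0.18 and 0.00 in the third and 0.01 and -0.08 in the last, and no gene of these pairs was called. Wnt1, Wnt3, Wnt8b and Wnt16 lay at or below a log2 level of 5.17, the 95th percentile of 1207 odorant, pheromone and trace amine receptor genes, which lung is not known to express. A level in this range does not by itself tell a low transcript from background.

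The Frizzled receptors, the seven-pass membrane proteins that bind Wnt ligands, gave differences from -0.14 to 0.20, and the groups overlapped in all 10. All 10 lay above the background level, 2 had a difference below 0 and 8 above, and the median was 0.01. Among those above, Fzd4, Fzd5, Fzd8 and Fzd9 differed by less than 0.01. After repeated quantile normalization 5 of 10 lay below 0, and without knockout replicate 1 it was 6 of 10. The intervals bound what could have been missed in whole-lung RNA: no Frizzled receptor had a 95% bound beyond 0.40 in either direction on the log2 scale. They do not bound a change within a single cell type.

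Fzd2, 1 of the closely related receptors Fzd1, Fzd2 and Fzd7, had the highest difference. It lay at 7.90, 7.81, 7.68 and 7.84 in stabilized lungs and at 7.62, 7.75, 7.59 and 7.48 in knockout lungs. Stabilized replicate 3 and knockout replicate 2 crossed over, and the difference of 0.20 ± 0.07 (SE) had a limma adjusted p = 0.13. Fzd1 was at 9.01, 9.01, 8.95 and 8.88 in stabilized lungs and 8.80, 8.83, 8.75 and 8.89 in knockout lungs (difference 0.15 ± 0.06, SE, limma adjusted p = 0.17). Only knockout replicate 4 lay above the lowest stabilized array. Fzd7 differed by 0.12 ± 0.07 (SE, limma adjusted p = 0.34), so the 3 receptors of this subgroup each had a difference above 0 and none passed.

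Fzd3, a receptor of planar cell polarity, differed by 0.19 ± 0.10 (SE, limma adjusted p = 0.25). Fzd6, its closest relative, differed by less than 0.01 in size, with a 95% interval from -0.15 to 0.14. Fzd4, which also binds Norrin and acts in blood vessels, differed by 0.01 ± 0.08 (SE, 95% interval -0.16 to 0.18). Fzd5 and Fzd8, a pair of similar receptors, had intervals from -0.20 to 0.21 each, and Fzd9 had one from -0.27 to 0.27. Fzd10 had the lowest difference of the family, -0.14 ± 0.08 (SE, limma adjusted p = 0.31).

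Among the other receptors Ryk alone was called. Ryk is a receptor tyrosine kinase with an extracellular Wnt-binding domain and a kinase domain without catalytic activity. Levels were 9.29, 9.35, 9.32 and 9.15 in stabilized lungs and 9.02, 9.04, 9.09 and 9.01 in knockout lungs. The groups did not overlap, but stabilized replicate 4 lay only 0.06 above the highest knockout array. The difference was 0.24 ± 0.06 (SE, 95% interval 0.10 to 0.38, limma adjusted p = 0.037) or 1.18-fold. This call was lost in 7 of 8 fits that left out 1 array, with limma adjusted p of 0.066 to 0.099 and differences of 0.21 to 0.25, and stood only without stabilized replicate 4. It was also lost after repeated quantile normalization (0.18, limma adjusted p = 0.083) and, narrowly, with Xist as a covariate (limma adjusted p = 0.0504), and stood in 5 of all 15 alternative fits.

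The co-receptors of the beta-catenin branch gave differences near 0. Lrp5 was at 9.19, 8.99, 9.27 and 9.06 in stabilized lungs and 9.06, 9.11, 9.20 and 9.11 in knockout lungs, and differed by 0.01 ± 0.07 (SE, 95% interval -0.15 to 0.17). Lrp6 was at 9.55, 9.62, 9.54 and 9.50 in stabilized lungs and 9.52, 9.56, 9.70 and 9.59 in knockout lungs, and differed by -0.04 ± 0.06 (SE, 95% interval -0.18 to 0.10). For both genes the arrays of the groups were interleaved. Ror2, a receptor tyrosine kinase for Wnt5a, had the largest difference among the other receptors that were not called. It lay at 6.67, 6.66, 6.77 and 6.97 in stabilized lungs and at 6.75, 6.77, 6.56 and 6.63 in knockout lungs. Stabilized replicate 4 was highest, the other arrays overlapped, and the difference was 0.09 ± 0.08 (SE, limma adjusted p = 0.52). Its relative Ror1 differed by -0.02 ± 0.08 (SE, limma adjusted p = 0.89).

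Porcn, the acyltransferase without which Wnt proteins are not secreted, was the only member called lower in stabilized lungs. Levels were 7.32, 7.00, 7.29 and 7.18 in stabilized lungs and 7.54, 7.63, 7.49 and 7.57 in knockout lungs. All stabilized arrays lay below all knockout arrays, and stabilized replicate 2 was the lowest of them. The means were 7.20 ± 0.15 and 7.56 ± 0.06 (SD, n = 4), a difference of -0.36 ± 0.08 (SE, 95% interval -0.53 to -0.19, limma adjusted p = 0.011), so that Porcn was 1.28-fold lower. The call stood in all 15 alternative fits, with differences from -0.40 without stabilized replicate 1 to -0.29 without stabilized replicate 2. Porcn lies on the X chromosome, and with Xist as a covariate its difference was -0.36 (limma adjusted p = 0.018). Xist itself differed by only -0.04 between the groups, so this fit could hardly move the difference of Porcn. The part of sex in that difference was not tested. The neighbours of Porcn, Ebp and Ftsj1, differed by -0.02 ± 0.07 and less than 0.01 in size, and neither was called.

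Wls, the carrier of lipid-modified Wnt ligands, had a difference above 0 that did not pass the test. It was at 9.58, 9.83, 9.53 and 9.48 in stabilized lungs and 9.38, 9.49, 9.32 and 9.53 in knockout lungs. Knockout replicates 2 and 4 lay above stabilized replicate 4, so the groups overlapped, and stabilized replicate 2 was the highest array in Wls and the lowest in Porcn. The difference was 0.17 ± 0.08 (SE, 95% interval -0.01 to 0.36, limma adjusted p = 0.23). The difference between these genes was not tested.

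**Figure D3:**
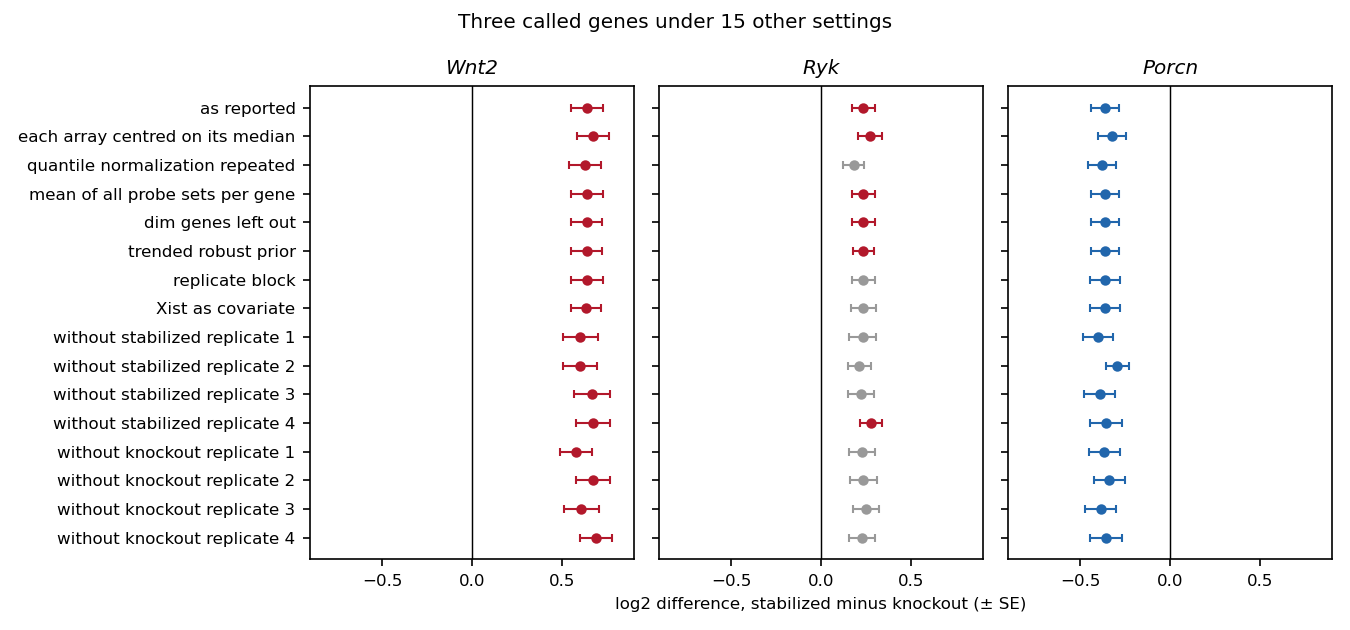
Difference in log2 expression (± SE, horizontal axis) of Wnt2, Ryk and Porcn as reported and under 15 other settings; coloured points were called at an adjusted p under 0.05 and gray points were not. Wnt2 and Porcn kept their calls in all 15 settings and Ryk in 5.

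The arrays did not share the extreme values evenly. Knockout replicate 1 was the lowest knockout array in 19 of 36 members (52.8%), beside 27.5% of all genes, and knockout replicate 4 was the highest in 16 (44.4%), beside 25.2%. Among stabilized arrays replicate 4 was the lowest in 13 (36.1%), beside 23.2% of all genes, and replicate 2 in 15 (41.7%), beside 38.9%. Without knockout replicate 1 the calls were Wnt2 and Porcn, without stabilized replicate 2 they were Wnt2, Wnt7a and Porcn, and without stabilized replicate 4 they were Wnt2, Ryk, Wnt4 and Porcn. Without knockout replicate 4 they were again Wnt2 and Porcn. The median SD within a group was 0.10 over members in knockout and 0.12 in stabilized lungs, close to 0.095 and 0.108 over all genes.

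The precision was enough to bound the genes that were not called. Of these 33 members 6 had a 95% interval that left out 0, which is an unadjusted p under 0.05 in the limma fit. Such a p was found in 9 of 36 members, 3 of them called, and in 4923 of 19937 genes, 1917 of them called. The widest bound of any uncalled member was 0.43 on the log2 scale, or 1.34-fold, reached by Wnt7a. These bounds are for whole-lung RNA on the scale of the arrays, where background makes differences of dim genes smaller than those of the transcripts.

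In 8 other lists of pathway genes the share called ran from 0% to 15.8%, beside 9.62% of all genes. The highest shares were 3 of 19 in cytoplasmic transduction (15.8%), 3 of 20 in canonical targets (15%) and 1 of 10 in secretory traffic (10%). Each rests on few genes, and no share was tested against that of all genes. R-spondins, their Lgr receptors and the ubiquitin ligases Rnf43 and Znrf3, which set how much Frizzled stays on the cell surface, had 0 of 9 genes called in the limma fit, with a median difference of -0.02. Of the 9 genes 4 had an unadjusted p under 0.05 in that fit, beside 4923 of 19937 over all genes. The highest value in that list, picked out after the values were seen, was that of the receptor Lgr4 at 0.36 ± 0.11 (SE, limma adjusted p = 0.066). In this list 1 gene was called higher after centring and without stabilized replicate 4. Of 19 secreted antagonists 1 was higher, 0 were lower and 18 did not pass, with a median of -0.01. The exception was Wif1, a secreted protein that binds Wnt ligands directly. Wif1 was at 7.74, 8.24, 8.32 and 8.46 in stabilized lungs and 7.28, 6.42, 7.34 and 7.52 in knockout lungs. Knockout replicate 2 was far below the others, and the difference was 1.05 ± 0.21 (SE, limma adjusted p = 0.0075), or 0.81 without that array.

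Of 14 extracellular cofactors, Sulf1 was higher, 0 were lower and 13 did not pass, with a median of 0.09. Sulf1, a sulfatase that trims the heparan sulfate chains to which Wnt ligands bind, lay at 8.46, 8.46, 8.19 and 8.36 in stabilized lungs and 7.90, 7.99, 7.93 and 7.86 in knockout lungs, with no overlap. Its difference was 0.44 ± 0.07 (SE, limma adjusted p = 0.0022). Of 10 genes of secretory traffic, which includes the retromer complex that recycles Wls, Vps26b, a retromer subunit, was higher, 0 were lower and 9 did not pass. It lay at 8.79, 8.79, 8.88 and 8.77 in stabilized lungs and at 8.55, 8.56, 8.51 and 8.59 in knockout lungs, with no overlap (difference 0.25 ± 0.06, SE, limma adjusted p = 0.018). Over all genes 9539 of 19937 differences lay above 0, and over genes above background level 7724 of 14200. The median of the secretory traffic list was 0.15. Its 10 genes all lay above background level, and 9 of their differences lay above 0. The number called higher depended on the setting: it was 3 after centring and with the trended robust prior, 2 without dim genes, and 0 after repeated quantile normalization and without stabilized replicate 3 or knockout replicate 3, where Vps26b lost its call (limma adjusted p = 0.051 to 0.062).

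**Figure D4:**
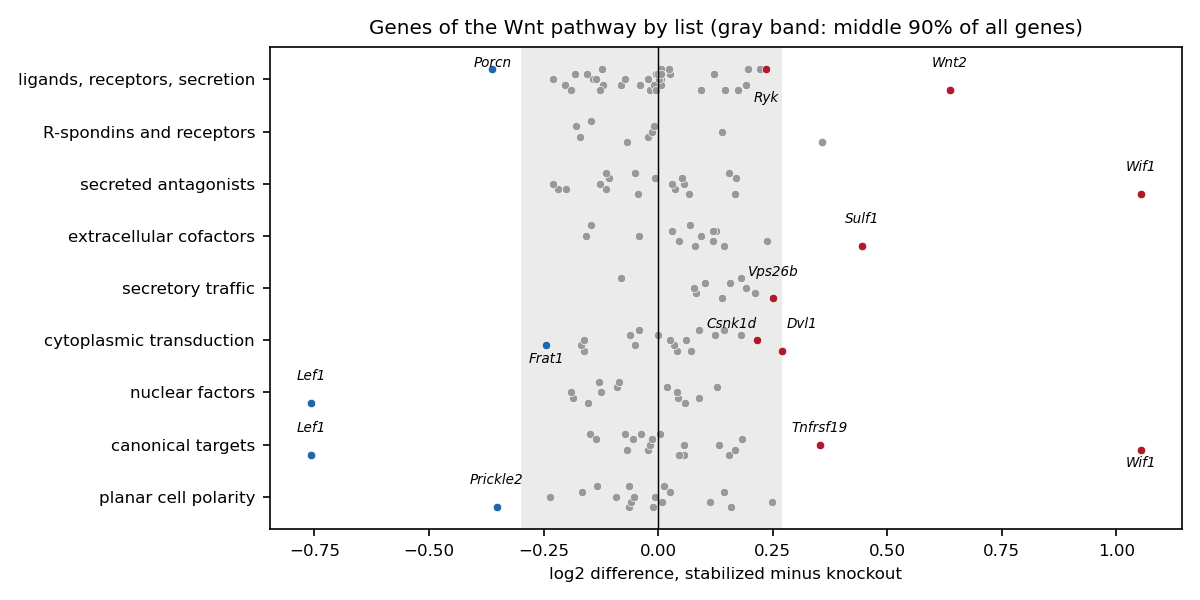
Difference in log2 expression (horizontal axis) of the 36 ligand, receptor and secretion genes and of 8 other lists of Wnt pathway genes, 1 point per gene; red is called higher, blue called lower, gray not called, and the band holds the middle 90% of all genes, -0.30 to 0.27. Farthest out are Wif1 at 1.05, Wnt2 at 0.64 and Sulf1 at 0.44 on the right and Lef1 at -0.76, Porcn at -0.36 and Prickle2 at -0.35 on the left.

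Inside the cell, 2 of 19 genes of cytoplasmic transduction were higher, 1 was lower and 16 did not pass, with a median of 0.04. Dvl1, a Dishevelled protein that Frizzled recruits, lay at 8.03, 7.90, 8.10 and 8.12 in stabilized lungs and at 7.72, 7.76, 7.75 and 7.84 in knockout lungs (difference 0.27 ± 0.07, SE, limma adjusted p = 0.026). Csnk1d, a casein kinase, lay at 8.89, 8.80, 8.83 and 8.78 in stabilized lungs and at 8.55, 8.64, 8.59 and 8.65 in knockout lungs (difference 0.22 ± 0.06, SE, limma adjusted p = 0.041). Frat1, a binding protein of the kinase Gsk3, was lower, at 6.15, 6.22, 6.06 and 6.05 in stabilized lungs and 6.42, 6.32, 6.29 and 6.44 in knockout lungs (difference -0.24 ± 0.07, SE, limma adjusted p = 0.039). The groups did not overlap in any of these 3 genes. Their calls were lost in 6, 7 and 7 of the 8 fits without 1 array and in all 3 genes after repeated quantile normalization. With Xist as a covariate Csnk1d and Frat1 lost theirs (limma adjusted p = 0.057 and 0.054), and Frat1 did so after centring (limma adjusted p = 0.071). Ctnnb1 itself was between 10.99 and 11.14 in stabilized and between 10.92 and 11.03 in knockout lungs, a difference of 0.09 ± 0.06 (SE, limma adjusted p = 0.42). Since the altered exons are unknown here, Ctnnb1 tells nothing about the labels of genotype.

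Of 14 measured nuclear factors Lef1 was lower and 13 did not pass, with a median of -0.09. Lef1, a partner of beta-catenin on DNA that lymphocytes also express, was at 6.96, 6.57, 6.93 and 6.76 in stabilized lungs and 7.73, 7.47, 7.69 and 7.35 in knockout lungs. The groups were apart by more than their spread (difference -0.76 ± 0.10, SE, limma adjusted p = 6.6e-04). The mean level of 9 T and NK cell markers was 5.67 to 5.92 in stabilized and 6.51 to 7.23 in knockout lungs. Knockout replicates 1 and 3 were highest in both measures and were also the knockout arrays with high Xist. The part of these cells or of sex in the difference of Lef1 was not tested. Of 20 canonical target genes 2 were higher (Wif1 and Tnfrsf19), 1 was lower (Lef1) and 17 did not pass, with a median of 0.00. Tnfrsf19, a receptor of the tumour necrosis factor family, lay at 8.59, 8.29, 8.40 and 8.38 in stabilized lungs and at 8.12, 8.15, 7.88 and 8.09 in knockout lungs (difference 0.35 ± 0.08, SE, limma adjusted p = 0.018). It lost its call without stabilized replicate 1 or knockout replicate 3. Axin2, the feedback inhibitor most often used as a readout of beta-catenin, was at 7.31, 7.32, 7.19 and 7.21 in stabilized lungs and 7.35, 7.23, 7.13 and 7.09 in knockout lungs. The groups overlapped, with a difference of 0.06 ± 0.07 (SE, 95% interval -0.10 to 0.21).

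Planar cell polarity, the branch reached through Fzd3, Fzd6, Ror2 and Ryk, had 0 of 18 measured genes higher, 1 lower and 17 that did not pass, with a median of -0.03. The gene called was Prickle2, a core polarity protein, at 8.37, 8.46, 8.40 and 8.31 in stabilized lungs and 8.69, 8.77, 8.79 and 8.71 in knockout lungs. The groups were clearly apart, by a difference of -0.35 ± 0.06 (SE, limma adjusted p = 0.0032). The number of polarity genes called higher was 1, in place of 0, in 7 of the 15 alternative fits, among them that after centring, and 2 were called lower without stabilized replicate 4. Without that array 1 antagonist was called lower and 2 cofactors higher, and 1 cofactor was called lower after repeated quantile normalization. The calls of Wif1, Sulf1, Lef1 and Prickle2 stood in all 15 alternative fits.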

How the data were processed

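Per the submitters' processing notes the authors used RMA and the affy package, versions not given, and deposited log2 expression values of 34760 probe sets on 8 arrays. RMA corrects background, quantile-normalizes arrays and summarises probes, so a change in total RNA is hidden and dim genes are compressed. Platform annotation gave 21640 probe sets a single symbol, 1321 several and 11799 none. The comparison used lmFit and eBayes of limma 3.58.1 (R 4.3.3) on 19937 genes and all 8 arrays, with no covariate or filter, Benjamini-Hochberg adjustment over all genes and a threshold of 0.05. The fit was tested on simulated data. Members, gene lists and the rule for named genes were chosen with earlier results of these data known. That rule gives values per array for members called or without overlap, the largest uncalled difference of each family, Ctnnb1, Axin2, Xist, and up to 4 called genes per list; Wnt7a, Fzd1, Lrp5, Lrp6, Tcf21, Pdgfra and Lum were shown after their values were seen. Alternatives were centring, repeated quantile normalization, probe-set means, a filter on dim genes, another prior, a replicate block, Xist as covariate, and each array left out. The number of arrays limits the precision.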

Additional observations from a re-analysis of the deposited data

Results flagged for a closer look

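In 6 of 72 groups of 4 arrays, 1 for each member and genotype, a single array stood far from the other 3 for its group's range. Chance gives about 1 in 20 for independent groups. The members were measured on the same arrays and are not independent, and the share over all genes was not computed. Wnt7a in stabilized replicate 2 was at 6.39, against 6.72 to 6.73 in the other stabilized arrays. Fzd10 in stabilized replicate 2 was at 5.01, against 5.22 to 5.26, and Wnt2b in that array was at 6.02, against 5.87 to 5.90. Wnt5b in knockout replicate 2 was at 6.77, against 6.63 to 6.65, and Fzd7 in that array was at 8.82, against 8.63 to 8.66. Wnt2b in knockout replicate 1 was at 5.71, against 5.98 to 6.01. None of these genes was called in the limma fit over all arrays.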

How the results depend on the processing

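Wnt2 and Porcn were called in all 15 alternative fits. Leaving out an array could not turn their direction, because their groups did not overlap. The number of members called higher fell from 2 to 1 after repeated quantile normalization, with Xist as a covariate and with the replicate block, where Ryk was lost (limma adjusted p = 0.054), and ranged from 1 to 2 with each array left out. The number called lower rose from 1 to 2 with the mean of all probe sets per gene, through Wnt4, and ranged from 1 to 2 with each array left out. Over all genes 1917 were called, 1828 with the replicate block and 1216 to 1839 without 1 array, the lowest being 1216 without stabilized replicate 1 and 1235 without knockout replicate 3. In the block fit Csnk1d and Frat1 also lost their calls (limma adjusted p = 0.082 and 0.064). The labels do not pair same-numbered arrays. Deviations of such arrays from the group means correlated at -0.01 to 0.08, and 2 of 8 arrays correlated best with their own number. Low correlations over so few arrays cannot exclude a shared origin. The share of called genes that were higher was 48.4%, and 64.4% after centring, which shifted the median of all genes by under 0.1. Signs turned only for members that differed by at most 0.07 in size. After centring Fzd6, Ror1, Wnt2b, Wnt6 and Wnt9b differed by 0.033, 0.015, 0.029, 0.020 and 0.033. After repeated quantile normalization Fzd4, Fzd8 and Lrp5 differed by -0.044, -0.027 and -0.050, Fzd5 by 0.000, and Wnt2b, Wnt6 and Wnt9b by 0.029, 0.021 and 0.034. With Xist as a covariate Fzd9 differed by -0.002. With each array left out, differences ranged from -0.037 to 0.055 for Fzd4, -0.052 to 0.082 for Fzd5, -0.038 to 0.035 for Fzd6, -0.062 to 0.070 for Fzd8, -0.131 to 0.075 for Fzd9, -0.041 to 0.053 for Lrp5, -0.080 to 0.023 for Ror1, -0.093 to 0.074 for Wnt1, -0.080 to 0.021 for Wnt2b, -0.073 to 0.038 for Wnt6, -0.104 to 0.051 for Wnt9b, -0.146 to 0.037 for Wnt10a and -0.030 to 0.069 for Wnt16. The fit without dim genes kept 14953 genes, by a lower cutoff than the background level of 5.17. Wnt1, Wnt3, Wnt8b and Wnt16 were not in it. The cause of these changes was not tested.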
